A study of Mus musculus with 12 samples.

Results

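Genomic imprinting was examined in cultured mouse brainstem progenitors through the expression of 42 imprinted genes. The list was set by gene symbol, each symbol was matched to one Ensembl mouse gene of the count files, and all 42 were found among the 54532 genes of each file. They lie in 20 imprinted domains. By textbook assignment 25 are expressed from the paternal copy and 12 from the maternal copy, and in 5 (Grb10, Ddc, Gnas, Ube3a and Ppp1r9a) the active copy depends on the tissue or promoter.

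An imprinted gene is transcribed mainly from the copy inherited from one parent. DNA methylation laid down in one germline marks an imprinting control region, and neighbouring genes of the domain often respond in opposite ways, one to the paternal and one to the maternal copy. Many imprinted genes act in growth, in the placenta and in the developing brain, where some lose or switch their imprint. The counts here summed both copies, since the mice were inbred C57BL/6 and the files separate no alleles, so a change of level cannot be told apart from a change of imprint.

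Total RNA was sequenced from progenitors of the brainstem of Nestin TVA, p53 floxed C57BL/6 pups at postnatal day 3 to 5, kept in serum-free medium with EGF and FGF2. The cells of each sample were infected with RCAS virus (an avian retrovirus that enters mouse cells only where they carry its receptor, TVA, here under the Nestin promoter) for human ACVR1 WT, for ACVR1 WT and H3.1K27M, for ACVR1 R206H, or for ACVR1 R206H and H3.1K27M, with 3 samples in each of the 4 groups. ACVR1 is a BMP receptor and R206H an activating change of it. H3.1K27M is a histone H3.1 with methionine at lysine 27 that inhibits PRC2, the complex that methylates this lysine. No group lacked an ACVR1 virus, none of the labels names a Cre virus for these cultures, and the share of infected cells was not measured in these files. No group had a virus for wild-type H3.1, or any other virus in place of that for H3.1K27M. Every comparison on H3.1K27M therefore also sets cells with an added virus and histone against cells without them. The K27M change cannot be told apart from these. The labels do not say whether the 3 samples of a group came from separate litters or cultures, so p-values measure the spread between these samples, which may be technical.

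Total counts lay between 19315020 and 26456257 per sample. Counts on mouse Acvr1, on which reads of the human transgene can align, were 894 to 1129 with ACVR1 WT, 1584 to 2272 with ACVR1 R206H, 3406 to 9205 with ACVR1 WT H3.1K27M and 12780 to 28270 with ACVR1 R206H H3.1K27M, so this level moved with both factors in every comparison given here. All 10 neural progenitor markers, among them Nes, Sox2 and Fabp7, were detected in every sample, and the 5 endothelial markers summed to at most 4.9 CPM (the count scaled to library size). The ACVR1 WT samples stood apart from one another. Gfap, the astrocyte filament, measured 345.9, 1419 and 2674 CPM in replicates 1, 2 and 3, and Nes measured 407.3, 131.8 and 73 CPM. The median SD of the log2 CPM of 35 imprinted genes was 0.251 in this group against 0.107, 0.073 and 0.069 in ACVR1 R206H, ACVR1 WT H3.1K27M and ACVR1 R206H H3.1K27M, while over 15483 genes it was 0.216 against 0.095, 0.084 and 0.076. The main results that used this group are therefore also given without its replicate 1. That sample was picked after its values were seen, although Gfap ran in steps over the 3 replicates. Leaving it out can narrow the spread of the group and move its mean away from other groups. Igf2r, for example, measured 58.7, 32.3 and 31.2 CPM here and 52.6 to 60.6 CPM with ACVR1 WT H3.1K27M. Calls gained without replicate 1 are therefore descriptions only.

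**Figure D1:**
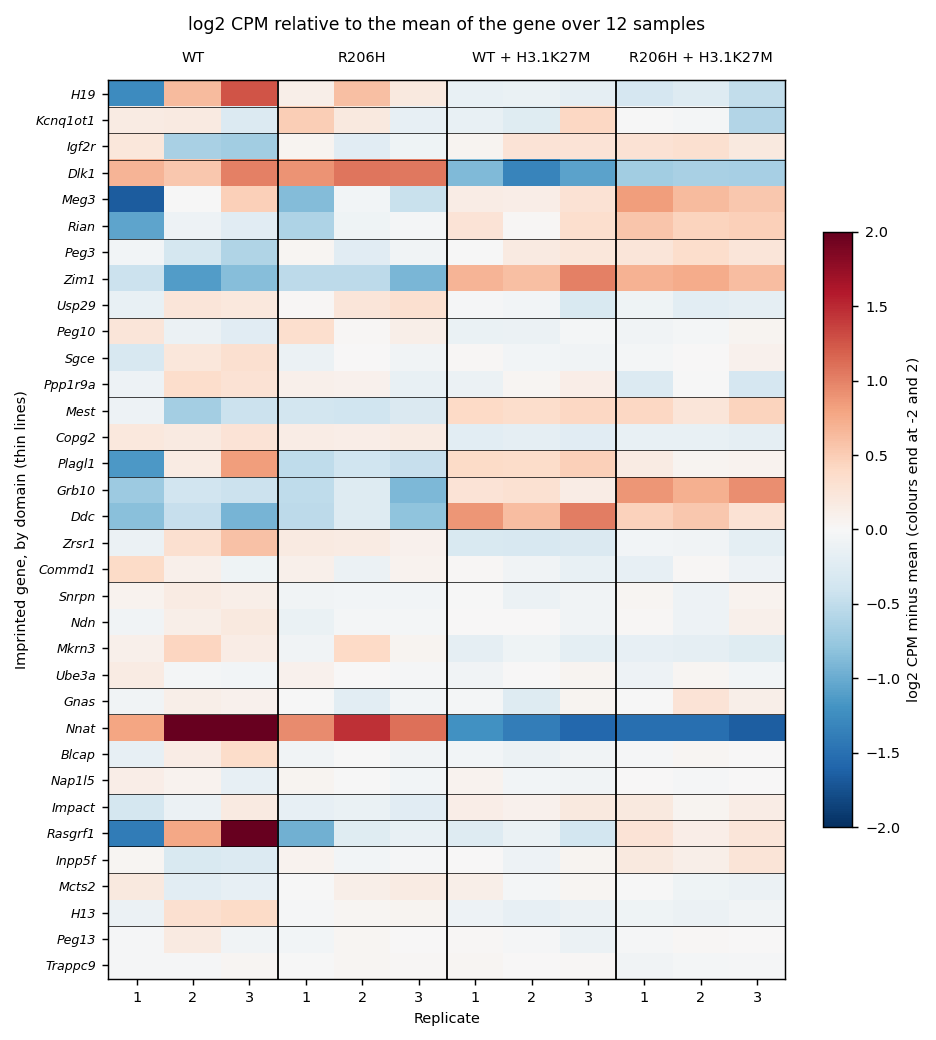
Heat map of the 34 imprinted genes tested in all 5 comparisons (vertical axis, by domain) in the 12 samples (horizontal axis), with colour for the log2 CPM minus the mean of the gene. Nnat and Dlk1 are red in the 6 samples without H3.1K27M and blue in the 6 with it, and in ACVR1 WT replicate 1 H19, Meg3, Plagl1 and Rasgrf1 are blue although replicate 3 is red.

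Promoters are shown for 4 members that changed with H3.1K27M in both ACVR1 backgrounds, Nnat and Dlk1 of those that fell and Mest and Zim1 of those that rose. Each stretch is the 250 bases before the annotated start in RefSeq (GRCm38.p6), read 5′ to 3′ on the strand of the gene, with CpG dinucleotides, the sites of DNA methylation, in capitals. The Mest and Nnat promoters are textbook cases of regions methylated on the silent maternal copy. Methylation was not measured in these files.
Nnat (chr2:157559828-157560077, plus strand): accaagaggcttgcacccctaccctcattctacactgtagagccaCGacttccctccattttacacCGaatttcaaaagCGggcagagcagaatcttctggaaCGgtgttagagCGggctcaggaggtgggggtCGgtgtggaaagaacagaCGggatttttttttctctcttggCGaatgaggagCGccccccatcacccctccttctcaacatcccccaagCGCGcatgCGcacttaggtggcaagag
Dlk1 (chr12:109452573-109452822, plus strand): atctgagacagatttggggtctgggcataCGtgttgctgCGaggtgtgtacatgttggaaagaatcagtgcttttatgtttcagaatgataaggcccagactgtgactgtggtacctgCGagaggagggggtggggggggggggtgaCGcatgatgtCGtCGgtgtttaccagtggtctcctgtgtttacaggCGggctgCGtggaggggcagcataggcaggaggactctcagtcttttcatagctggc
Mest (chr6:30737800-30738049, plus strand): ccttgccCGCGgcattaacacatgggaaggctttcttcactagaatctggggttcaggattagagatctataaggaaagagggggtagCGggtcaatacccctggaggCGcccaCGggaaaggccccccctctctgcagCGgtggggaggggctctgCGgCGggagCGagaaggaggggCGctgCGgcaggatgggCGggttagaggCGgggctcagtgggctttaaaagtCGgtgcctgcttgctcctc
Zim1 (chr7:6696433-6696682, minus strand): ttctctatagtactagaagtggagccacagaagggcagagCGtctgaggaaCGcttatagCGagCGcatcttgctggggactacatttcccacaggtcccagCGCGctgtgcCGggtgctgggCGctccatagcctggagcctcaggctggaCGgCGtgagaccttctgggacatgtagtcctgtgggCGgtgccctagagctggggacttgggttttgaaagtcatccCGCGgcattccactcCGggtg

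RefSeq windows of 300 bases (250 before and 50 after a start) matched 35 of the 42 genes, with 52 windows. Their median number of CpG was 15 (range 0 to 48) against 7 over all 32817 windows. The full windows around the stretches printed above held 17 each for Nnat and Mest, 20 for Zim1 and 9 for Dlk1. The hexamer TGCCGC, which ZFP57 binds when its CpG is methylated, was searched on both strands and contains a CpG itself. It was found in 13 of the 52 windows (25%), those around the printed Nnat, Mest and Zim1 stretches included, and in 11.6% of all windows. A further Mest window (chr6:30733256-30733555) held 8 CpG and no such hexamer. The core GCCATNTT of the YY1 site was in 3 of the 52 (5.77%) and in 6.04% of all windows. Windows of one gene overlap or lie close together, and a match is a description of letters and not a measured binding site.

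Levels spanned a wide range. Per kb of exon, Nnat, which encodes the small membrane protein neuronatin, was the highest of the 42 in all 4 groups, at 1145 CPM per kb with ACVR1 WT and 103 CPM per kb with ACVR1 R206H H3.1K27M. Nap1l5, a nucleosome assembly protein relative, was second in all 4 groups at 54.8 to 56.1 CPM per kb, and Blcap and Ndn (necdin, a growth suppressor of neurons) followed at 28.8 to 34.1 CPM per kb, where their order was not the same in every group. Counts were present in every sample for 36 genes. Few counts were found for Dio3, with 0 or 1 per sample, Phlda2 with 0 or 1, Rtl1 with 0 to 4, Igf2 with 0 to 8 and Mirg with 2 to 17, and for Slc38a4 and Magel2 in the samples without H3.1K27M. Kcnq1ot1, a long antisense RNA, had 57 to 114 counts, yet per kb it lay below Mirg in all 4 groups, at 0.0319 to 0.0416 CPM per kb. A sample with 0 counts allows up to 3 counts, or 0.112 to 0.156 CPM, from counting error alone. In all, 34 genes had enough counts for all 5 comparisons (a mean normalised count of at least 10), 4 for some (Airn, Mirg, Magel2 and Slc38a4) and 4 for none (Igf2, Phlda2, Rtl1 and Dio3).

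**Figure D2:**
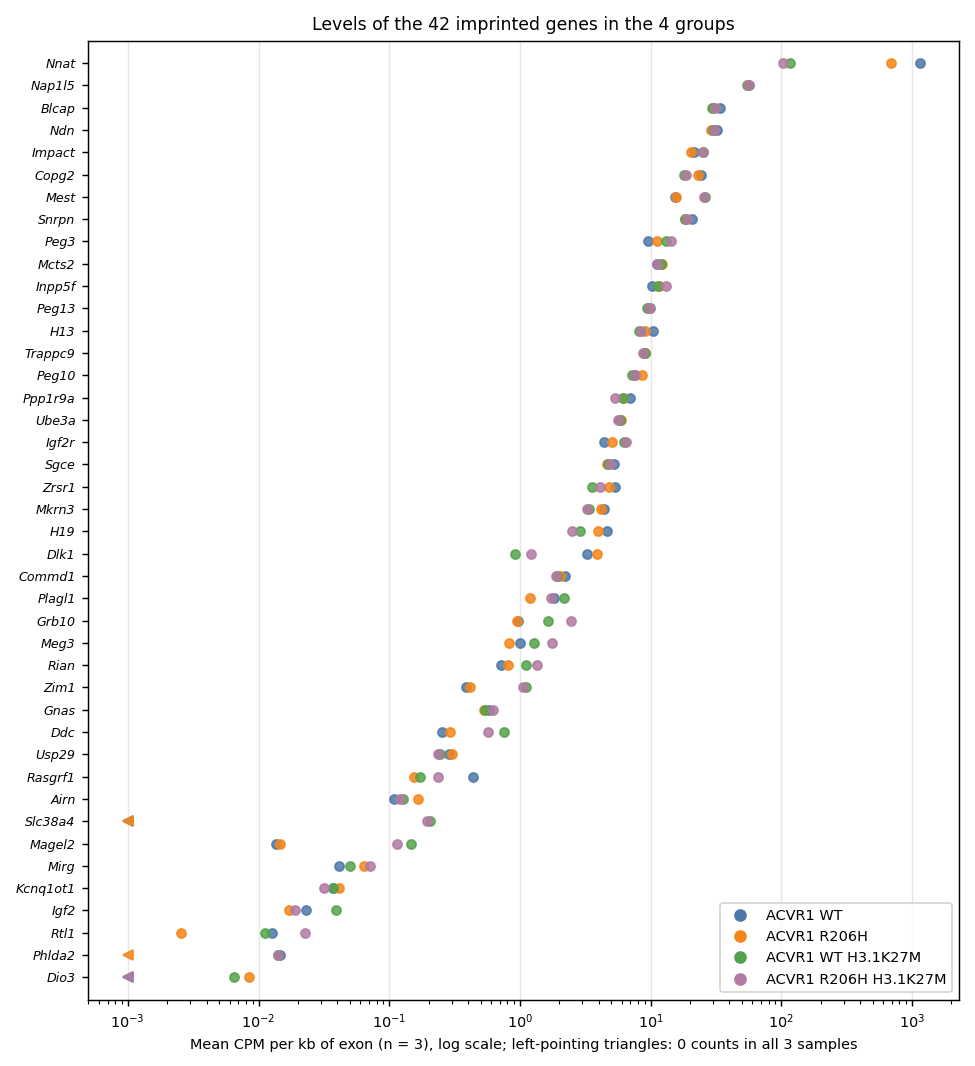
Mean CPM per kb of exon (horizontal axis, log scale, n = 3) of the 42 imprinted genes (vertical axis, ordered by mean level), with one point per group and a triangle where all 3 samples had 0 counts. The 4 groups lie close together for most genes, while Nnat and Dlk1 are lower and Zim1, Ddc, Grb10, Magel2 and Slc38a4 higher in the groups with H3.1K27M.

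The first question was how the genes differed with H3.1K27M. In cells with ACVR1 R206H, 19 of the 36 imprinted genes tested (52.8%) differed between the samples with and without H3.1K27M, 12 higher and 7 lower (edgeR's quasi-likelihood test, Benjamini-Hochberg adjusted over all genes, threshold 0.05). Of all 15482 genes tested, 56.5% were called, 29.1% higher and 27.4% lower, so the share among imprinted genes was near that of all genes. In cells with ACVR1 WT, 7 of 34 (20.6%) were called, 4 higher and 3 lower, against 23% of 15385 genes, 12.6% higher and 10.4% lower. Without ACVR1 WT replicate 1 the count was 22 of 35, 9 higher and 13 lower, against 52.6% of all genes, or 21 of 34 leaving out Slc38a4, which had 0 counts in every ACVR1 WT sample and entered that test through the samples with H3.1K27M. The 7 genes called with ACVR1 WT (Nnat, Dlk1, Copg2, Zim1, Ddc, Grb10 and Mest) were among the 19 called with ACVR1 R206H and had the same sign. The 2 comparisons shared no sample. How many of all genes called with ACVR1 WT recurred with the same sign was not counted, so the overlap cannot be read as particular to these genes. By copy, the called genes with ACVR1 R206H were 11 of 20 paternally expressed genes (6 higher, 5 lower), 6 of 11 maternally expressed genes (4 higher, 2 lower) and 2 of 5 with a varying copy, and the median log2 fold changes were 0.02, 0.07 and 0.24 against -0.00 over all genes. With ACVR1 WT they were 3 of 19, 2 of 10 and 2 of 5 in the same order, and the medians were -0.07, -0.08 and -0.01 against -0.02 over all genes. Without ACVR1 WT replicate 1 the counts became 12 of 20, 7 of 10 and 3 of 5, and the medians -0.11, -0.05 and 0.06 against 0.00. The 12 of 20 and the median of -0.11 include Slc38a4, which entered only through the samples with H3.1K27M. Markers of other cells moved with H3.1K27M too. The 10 meningeal fibroblast and pericyte markers summed to 14.4 to 20 CPM without it and 22.9 to 39.4 CPM with it, with 7 and 9 of the 10 detected in all samples of a group, and the 7 oligodendrocyte lineage markers to 2378 to 3292 and 3476 to 4221 CPM. The 5 astrocyte markers went from 4023 to 5023 CPM to between 2991 and 3061 CPM in the R206H background, and in the ACVR1 WT background from 2009 to 10939 CPM to between 2307 and 2365 CPM. The 5 microglia markers summed to 3.2 to 5.28 against 1.98 to 2.95 CPM with R206H and to 2.75 to 9.82 against 1.27 to 1.62 CPM with ACVR1 WT. In the R206H background the endothelial sum went from between 1.29 and 1.6 to between 2.72 and 4.9 CPM and the neural progenitor sum from between 6751 and 6931 to between 7531 and 7867 CPM, while both ranges overlapped in the ACVR1 WT background. Hes5, within the progenitor sum, fell with H3.1K27M. Its mean went from 68.4 to 9 CPM with R206H and from 72.5 to 9.52 CPM with ACVR1 WT. The sum of the 6 choroid plexus markers overlapped, at 19.3 to 57.2 CPM without H3.1K27M and 21.2 to 27.3 CPM with it. Ttr, within that set, did not, at 14 to 50.1 CPM without and 0.119 to 6.66 CPM with H3.1K27M. The part of these markers in the genes that rose or fell was not tested. In the R206H background at least 1 gene was called in 13 of the 19 domains tested, and in 3 domains (Dlk1-Dio3, Peg3 and Mest) genes rose and fell side by side. In the Peg3 domain the fall was that of Usp29 alone, which DESeq2 did not call (adjusted p = 0.1). How often neighbouring genes elsewhere gave both directions was not counted, with 29.1% of all genes called higher and 27.4% lower. With ACVR1 WT it was 5 of the 19, with both directions in 1, that of Mest, and without ACVR1 WT replicate 1 it was 14 of 20, that of Slc38a4 included, with both directions in 2 (Dlk1-Dio3 and Mest).

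**Figure D3:**
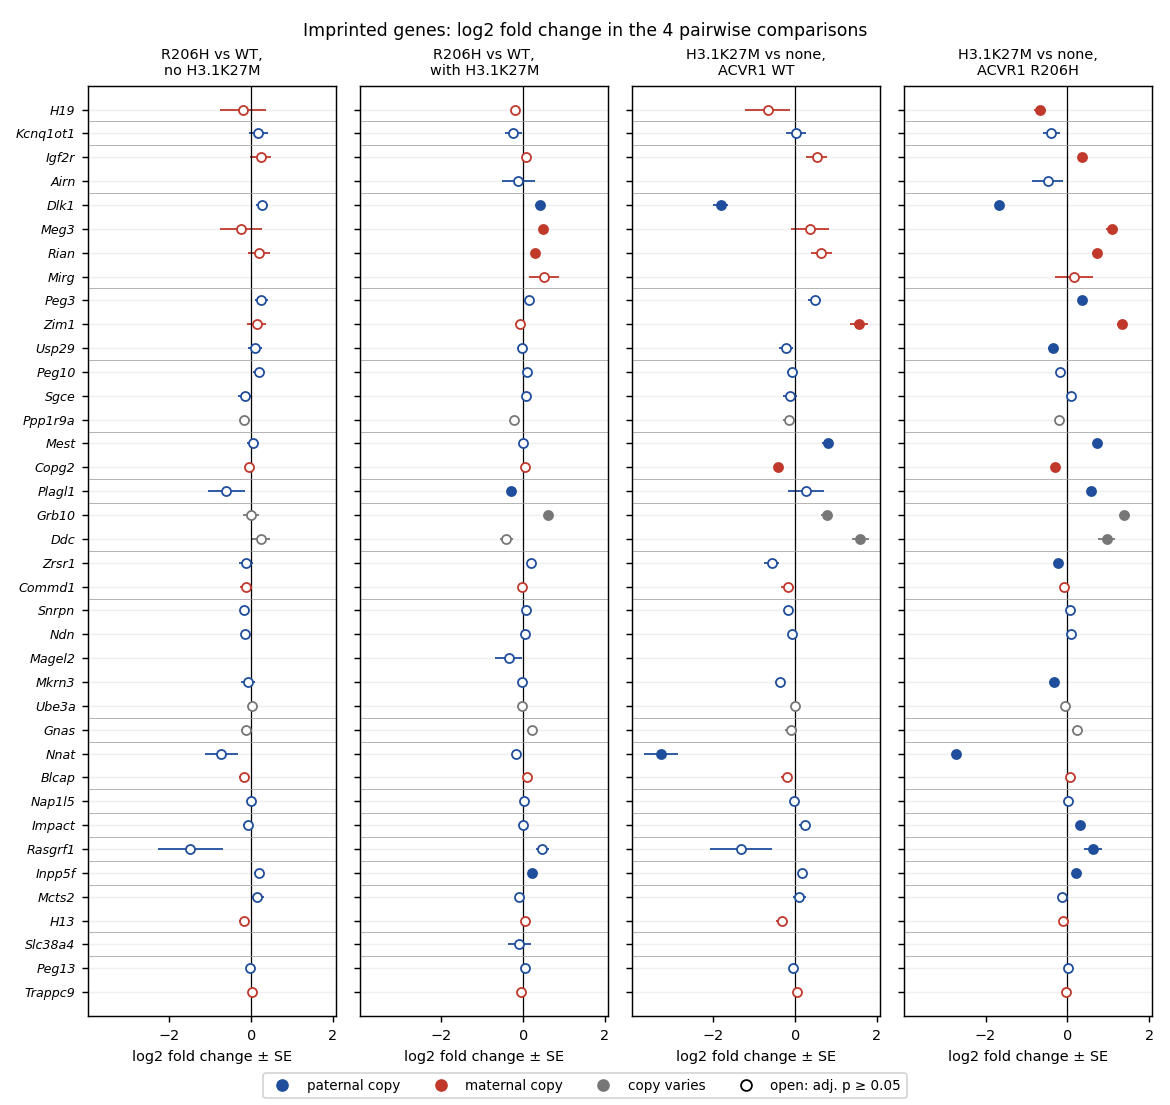
The log2 fold change (horizontal axis, points, with SE as bars) of each imprinted gene tested (vertical axis, by domain) in the 4 pairwise comparisons, coloured by the expressed copy and filled where the adjusted p was under 0.05. Filled points lie mostly in the 2 panels on H3.1K27M, with Nnat at -3.29 and -2.72 farthest to the left, and the panel of R206H without H3.1K27M holds none.

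Nnat, the paternally expressed member of the Nnat-Blcap domain (chr2:157560078-157562522, GRCm38), had the largest log2 fold change, by size, of those of the 42 genes tested with all samples in both backgrounds. It measured 950.6, 2437 and 2897 CPM with ACVR1 WT and 1062, 1512 and 1185 CPM with ACVR1 R206H. With H3.1K27M it measured 237.4, 212.8 and 186.4 CPM in the ACVR1 WT background and 193.4, 194.9 and 176.8 CPM in the R206H background. Every sample with H3.1K27M was thus below every sample without it. The means with R206H were 1253 ± 232 (SD, n = 3) and 188.4 ± 10 (SD, n = 3) CPM, a fall of 6.6-fold (log2 fold change -2.72, SE 0.11, edgeR adjusted p = 3.3e-09). In the ACVR1 WT background the fall was 9.79-fold (log2 fold change -3.29, SE 0.42, edgeR adjusted p = 0.0047), and -3.64 without ACVR1 WT replicate 1 (edgeR adjusted p = 8.9e-07). Blcap, the maternally expressed gene in whose intron Nnat lies, did not pass the test in either background (log2 fold change 0.07, SE 0.04, with R206H), although without ACVR1 WT replicate 1 it was lower with H3.1K27M in the ACVR1 WT background (log2 fold change -0.33, edgeR adjusted p = 0.0052). The counts of Nnat over those of Blcap in the same sample were 11.3 to 23.7 without H3.1K27M and 1.86 to 2.62 with it. The summed level of 7 neuron markers also was lower with H3.1K27M, at 620 to 784.4 CPM against 1156 to 1693 CPM, with all 7 genes detected in every sample, and its part in the results for Nnat, Dlk1 and other genes that fell was not tested. In bulk RNA, fewer cells of a type and less RNA per cell cannot be told apart.

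In the Dlk1-Dio3 domain on chromosome 12 the paternally expressed Dlk1 fell with H3.1K27M in both backgrounds, and the maternally expressed Meg3 and Rian rose in the R206H background. Dlk1 (chr12:109452823-109463336) encodes a membrane protein related to Notch ligands that holds back differentiation. It measured 17.5, 15.9 and 22 CPM with ACVR1 WT and 20.4, 22.9 and 22.7 CPM with ACVR1 R206H, against 5.93, 4.38 and 5.19 CPM and 6.69, 6.94 and 6.84 CPM in the same order with H3.1K27M. The groups with and without H3.1K27M did not overlap. The fall was 3.54-fold in the ACVR1 WT background (log2 fold change -1.82, SE 0.18, edgeR adjusted p = 0.0023; -1.86 without ACVR1 WT replicate 1) and 3.19-fold in the R206H background (log2 fold change -1.67, SE 0.08, edgeR adjusted p = 1.3e-08).

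Meg3 (chr12:109541001-109571726), a long noncoding RNA of the maternal copy, measured 11, 19.4 and 14.7 CPM with ACVR1 R206H and 35.9, 31 and 29.1 CPM with ACVR1 R206H H3.1K27M, a rise of 2.15-fold (log2 fold change 1.10, SE 0.15, edgeR adjusted p = 5.6e-05). With ACVR1 WT it spread from 6.35 over 20 to 27.8 CPM, a range that covered the 22.2, 22 and 24.5 CPM of ACVR1 WT H3.1K27M, and the difference did not pass (log2 fold change 0.36, edgeR adjusted p = 0.62, and -0.05, edgeR adjusted p = 0.78, without ACVR1 WT replicate 1). Rian, the neighbouring noncoding RNA that hosts small nucleolar RNAs, rose 1.66-fold with H3.1K27M in the R206H background, from 11.3, 16.4 and 16.9 to 25.6, 23.7 and 24.1 CPM (log2 fold change 0.73, SE 0.12, edgeR adjusted p = 0.00024). In the ACVR1 WT background Rian measured 8.34, 16.2 and 14.8 CPM without and 21, 17.6 and 22 CPM with H3.1K27M, which did not pass (log2 fold change 0.64, edgeR adjusted p = 0.11). It passed without ACVR1 WT replicate 1 (log2 fold change 0.40, edgeR adjusted p = 0.021) and when all 12 samples were fitted together (0.63, edgeR adjusted p = 0.041). Mirg, a further noncoding RNA of the maternal copy, had 2 to 17 counts per sample and passed no test. Read as the counts of Meg3 over those of Dlk1 within a sample, the domain stood at 0.363 to 1.26 without H3.1K27M and 3.74 to 5.36 with it.

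**Figure D4:**
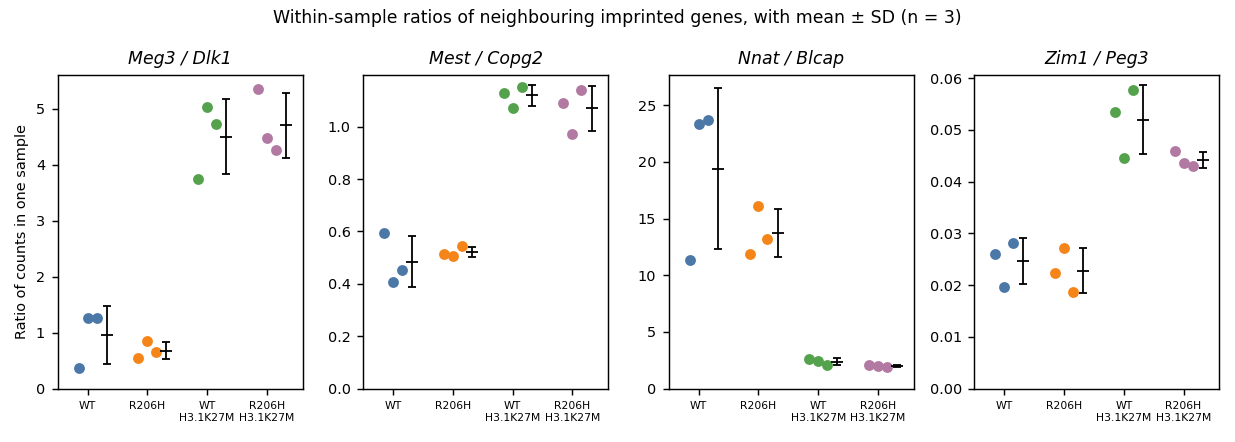
Ratio of the counts of 2 neighbouring imprinted genes in each sample (vertical axes, linear and starting at 0) by group, with black bars for the mean and SD (n = 3). Meg3 over Dlk1, Mest over Copg2 and Zim1 over Peg3 are higher, and Nnat over Blcap is lower, in all 6 samples with H3.1K27M than in all 6 without, and the ratios are not per length, so only their change between groups can be read.

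Mest and Copg2, which converge at their 3′ ends on chromosome 6, moved in opposite directions. Mest (chr6:30723547-30748465), a paternally expressed relative of hydrolases, measured 73.2, 49.4 and 58.3 CPM with ACVR1 WT, 61.2, 59.5 and 64.6 CPM with ACVR1 R206H, 104.1, 100.5 and 104.7 CPM with ACVR1 WT H3.1K27M, and 105.2, 93.3 and 107 CPM with ACVR1 R206H H3.1K27M. It rose 1.66-fold with H3.1K27M in the R206H background (log2 fold change 0.73, SE 0.06, edgeR adjusted p = 7.1e-07). In the ACVR1 WT background it rose 1.72-fold (log2 fold change 0.79, SE 0.14, edgeR adjusted p = 0.013), which became 0.95 without ACVR1 WT replicate 1 and missed the threshold without any one of the 3 ACVR1 WT H3.1K27M samples (edgeR adjusted p 0.057 to 0.062). Copg2 (chr6:30747554-30896794), a coatomer subunit with a maternal bias in brain, fell from 123.3, 120.9 and 128.7 CPM with ACVR1 WT to 92, 93.7 and 91 CPM with H3.1K27M (log2 fold change -0.42, SE 0.06, edgeR adjusted p = 0.0054; also -0.42 without ACVR1 WT replicate 1) and from 118.8, 117.5 and 119.1 to 96.2, 96 and 93.7 CPM in the R206H background (log2 fold change -0.30, SE 0.04, edgeR adjusted p = 3.4e-05). The difference for Copg2 was small, but its groups did not overlap. Of the exon bases of Mest 23.1%, and of those of Copg2 17.8%, are shared between the genes, and reads there were counted for neither gene.

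In the Peg3 domain on chromosome 7 the maternally expressed Zim1 changed most. Zim1 (chr7:6671269-6696450), a zinc finger protein, measured 3.93, 2.44 and 2.93 CPM with ACVR1 WT and 8.43, 7.99 and 10.6 CPM with ACVR1 WT H3.1K27M, a rise of 2.93-fold (log2 fold change 1.55, SE 0.22, edgeR adjusted p = 0.0065; 1.76 without ACVR1 WT replicate 1). With ACVR1 R206H it measured 3.65, 3.67 and 2.81 CPM, and with H3.1K27M added 8.54, 8.78 and 8.07 CPM, 2.53-fold more (log2 fold change 1.34, SE 0.13, edgeR adjusted p = 3.4e-06). Peg3, the paternally expressed zinc finger gene of the domain, rose 1.29-fold in the R206H background, from 162.8, 134.8 and 150.9 to 186.2, 201.1 and 187.4 CPM (log2 fold change 0.37, SE 0.06, edgeR adjusted p = 0.00033). Peg3 missed the threshold in the ACVR1 WT background (log2 fold change 0.47, edgeR adjusted p = 0.062) and passed without ACVR1 WT replicate 1 (0.62, edgeR adjusted p = 0.00095). Usp29, transcribed away from Peg3 on the paternal copy, had a log2 fold change of -0.35 (SE 0.13, edgeR adjusted p = 0.036), a call that DESeq2 (adjusted p = 0.1) and 4 of the 6 fits without a sample did not make. Of the exon bases of one of the 3 main Usp29 transcripts 96.7% are shared with other genes (Zim3 and Gm27675), and reads there were not counted. Usp29 shares no exon bases with Peg3. Zim1 over Peg3 within a sample was 0.0186 to 0.0282 without and 0.0431 to 0.0577 with H3.1K27M.

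Both genes of the Grb10 domain on chromosome 11 rose with H3.1K27M. Grb10 (chr11:11930508-12038683) encodes an adaptor that restrains insulin and IGF receptor signalling, and is expressed from the maternal copy in most tissues and from the paternal copy in neurons. It measured 7.54, 9.54 and 9.24 CPM with ACVR1 WT, 8.75, 10.4 and 6.68 CPM with ACVR1 R206H, 15.1, 15.4 and 13.9 CPM with ACVR1 WT H3.1K27M, and 23, 20.4 and 23.7 CPM with ACVR1 R206H H3.1K27M. Both groups with H3.1K27M lay above all samples without it, and they did not overlap each other. The rise was 1.7-fold in the ACVR1 WT background (log2 fold change 0.77, SE 0.13, edgeR adjusted p = 0.011; 0.67 without ACVR1 WT replicate 1) and 2.62-fold in the R206H background (log2 fold change 1.39, SE 0.13, edgeR adjusted p = 2.1e-06). Without ACVR1 WT H3.1K27M replicate 1 or 2 the former missed the threshold (edgeR adjusted p 0.057 and 0.063). Ddc (chr11:11814101-11898144), which makes dopamine and serotonin from their precursors, was low, at 0.977 to 1.55 CPM without H3.1K27M. With it, Ddc measured 3.44, 2.85 and 3.8 CPM in the ACVR1 WT background (log2 fold change 1.59, SE 0.21, edgeR adjusted p = 0.0052; 1.55 without ACVR1 WT replicate 1) and 2.56, 2.72 and 2.28 CPM in the R206H background (log2 fold change 0.96, SE 0.21, edgeR adjusted p = 0.0018).

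**Figure D5:**
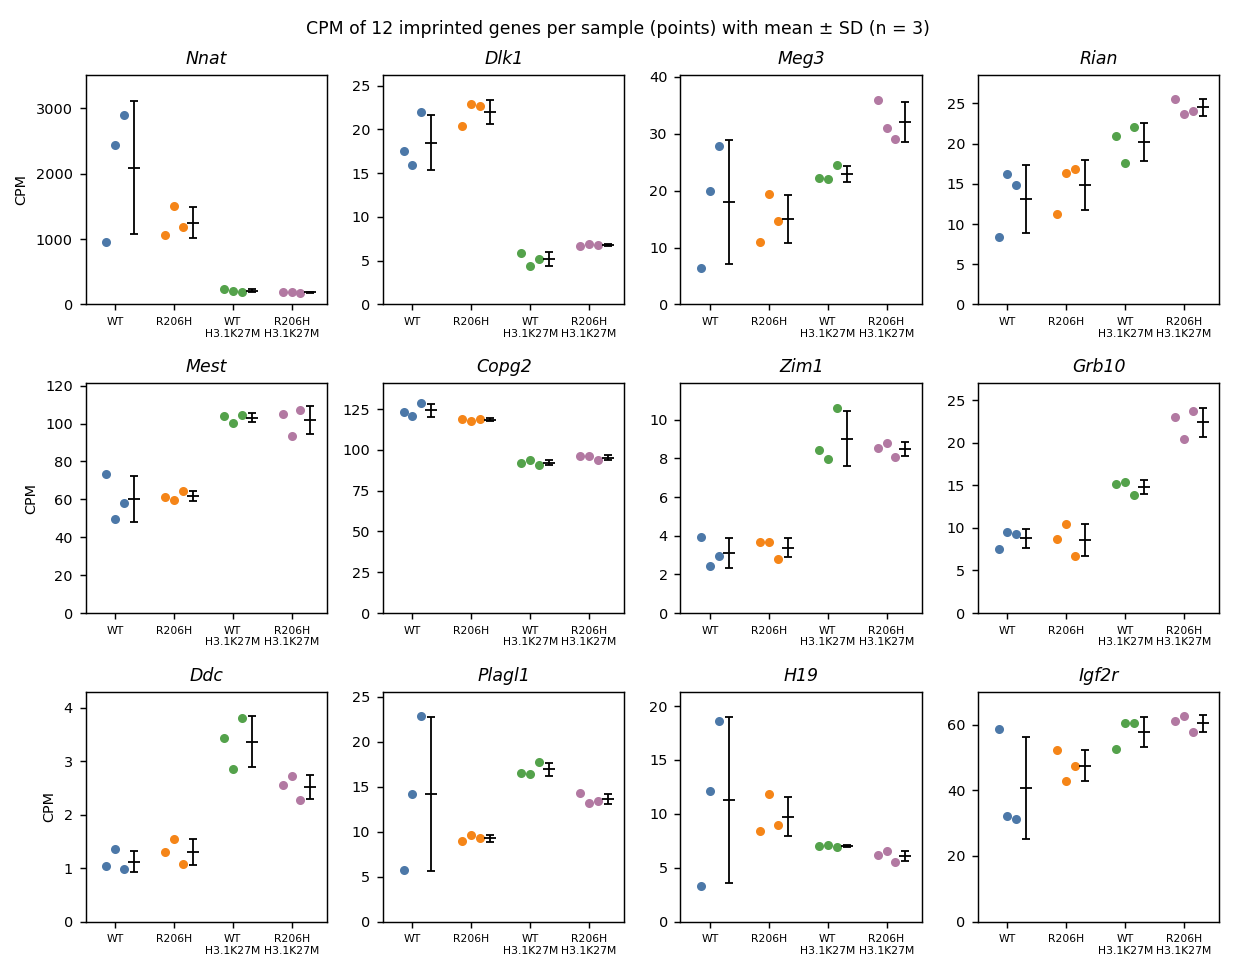
CPM (vertical axes, linear and starting at 0) of 12 imprinted genes in each of the 12 samples (points), by group, with black bars for the mean and SD (n = 3). The samples with H3.1K27M are separate from those without for Nnat, Dlk1, Mest, Copg2, Zim1, Grb10 and Ddc. The wide spread of ACVR1 WT covers all other groups for Plagl1 and H19 and overlaps at least some of them for Meg3 and Igf2r.

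The classical reciprocal pairs gave smaller or uncertain differences. H19 (chr7:142575529-142578143), a noncoding RNA of the maternal copy, measured 8.45, 11.8 and 8.96 CPM with ACVR1 R206H and 6.17, 6.54 and 5.57 CPM with ACVR1 R206H H3.1K27M (log2 fold change -0.67, SE 0.14, edgeR adjusted p = 0.0013). With ACVR1 WT it ranged from 3.27 over 12.1 to 18.6 CPM, against 7.04, 7.14 and 6.93 CPM with H3.1K27M, and passed only without ACVR1 WT replicate 1 (log2 fold change -1.11, edgeR adjusted p = 0.0011). Its partner Igf2, a fetal growth factor of the paternal copy, had 0 to 8 counts per sample. That level cannot be read as absence, since 76.2% to 97% of the exon bases of its transcripts are shared with other annotated genes, and reads on shared bases were not counted. Igf2r (chr17:12682406-12769664), the maternally expressed receptor that clears IGF2, measured 52.4, 42.9 and 47.3 CPM with ACVR1 R206H and 61.3, 62.6 and 57.7 CPM with ACVR1 R206H H3.1K27M (log2 fold change 0.36, SE 0.07, edgeR adjusted p = 0.00081). In the ACVR1 WT background it measured 58.7, 32.3 and 31.2 CPM without and 52.6, 60.6 and 60.6 CPM with H3.1K27M, which passed only without replicate 1 (log2 fold change 0.88, edgeR adjusted p = 7.2e-05). Airn, the paternal antisense RNA that silences Igf2r in cis, is counted without strand like all genes here and had 5 to 16 counts in each sample and did not pass a test in any comparison with enough counts.

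Several further domains held calls with H3.1K27M in the R206H background. Plagl1 (chr10:13060504-13131694), a paternally expressed zinc finger regulator of other imprinted genes, rose 1.48-fold, from 8.9, 9.67 and 9.25 to 14.3, 13.2 and 13.4 CPM (log2 fold change 0.57, SE 0.08, edgeR adjusted p = 0.00011). With ACVR1 WT, Plagl1 had a log2 fold change of 0.26 (edgeR adjusted p = 0.71), whose sign turned without ACVR1 WT replicate 1 (-0.12, edgeR adjusted p = 0.59). Inpp5f, an inositol phosphatase, rose from 100.7, 91.8 and 94.5 to 110.1, 104.1 and 114.9 CPM (log2 fold change 0.21, SE 0.05, edgeR adjusted p = 0.0042). Impact, a regulator of translation, had a log2 fold change of 0.32 (SE 0.05) and the splicing factor relative Zrsr1 one of -0.24 (SE 0.07). Inpp5f, Impact and Zrsr1 did not pass in the ACVR1 WT background (log2 fold changes 0.17, 0.23 and -0.58), and without ACVR1 WT replicate 1 Inpp5f and Zrsr1 did (0.29 and -0.75). Rasgrf1, a Ras exchange factor of neurons, rose from 1.15, 1.91 and 2.03 to 2.71, 2.46 and 2.65 CPM (log2 fold change 0.63, edgeR adjusted p = 0.027), a call that DESeq2 did not make (adjusted p = 0.059). In the ACVR1 WT background its samples without H3.1K27M ran from 0.853 over 3.84 to 9.73 CPM and those with it from 1.74 to 2.05 CPM. The log2 fold change there was -1.33 (SE 0.75, edgeR adjusted p = 0.24), and -1.84 without ACVR1 WT replicate 1 (edgeR adjusted p = 0.0033). The interaction for Rasgrf1 did not pass with all samples (edgeR adjusted p = 0.64), but did without ACVR1 WT replicate 1 (log2 interaction 2.47, edgeR adjusted p = 0.0016). Of the Prader-Willi/Angelman genes, Mkrn3 was called (log2 fold change -0.33, edgeR adjusted p = 0.035, but 0.06 to 0.14 in 4 of the 6 fits without a sample), while Snrpn, Ndn and Ube3a did not pass in the R206H background, at log2 fold changes of 0.07, 0.09 and -0.05. With DESeq2, Peg3 and Zrsr1 were called in the ACVR1 WT background as well (adjusted p = 0.024 and 0.022). When all 12 samples were fitted together, 6 further genes were called there, Peg3 and Rian higher and H13, Mkrn3, Snrpn and Zrsr1 lower. In the R206H background the joint fit, which lent the spread of ACVR1 WT to this comparison, called 11 genes, and H19, Igf2r, Plagl1, Inpp5f, Zrsr1, Rasgrf1, Mkrn3 and Usp29 missed the threshold.

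Slc38a4 and Magel2 were too low for the tests of H3.1K27M with all samples and were chosen after their values were seen. Slc38a4, an amino acid transporter of the paternal copy known from placenta and liver, had 0 counts in all 6 samples without H3.1K27M. It had 20, 19 and 23 counts with ACVR1 WT H3.1K27M and 23, 18 and 16 with ACVR1 R206H H3.1K27M. Against a floor of 3 counts per library, its mean CPM with H3.1K27M was at least 5.93-fold higher in the ACVR1 WT background and at least 5.5-fold higher in the R206H background. Magel2, a paternally expressed gene of the Prader-Willi domain, had 4, 0 and 0 counts with ACVR1 WT and 2, 2 and 0 with ACVR1 R206H, against 22, 12 and 14 and 13, 10 and 14 counts with H3.1K27M. The ratios of the summed levels were 10.3 (95% exact interval 3.78 to 39.4) and 7.85 (2.82 to 30.3), intervals that cover counting error only. No sample with H3.1K27M overlapped one without it for either gene.

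The second question was how the genes differed with the R206H change. With H3.1K27M present, 6 of 38 genes (15.8%) were called, 5 higher and 1 lower, against 20.3% of 15672 genes, 11.4% higher and 8.95% lower. Sums of several cell type marker sets moved with R206H in these samples too, without overlap, while the oligodendrocyte lineage and choroid plexus sums overlapped. The meningeal fibroblast and pericyte sum went from between 22.9 and 25.1 to between 33.3 and 39.4 CPM, the astrocyte sum from between 2307 and 2365 to between 2991 and 3061 CPM, and the neural progenitor sum from between 6584 and 6935 to between 7531 and 7867 CPM. Nes, within the progenitor sum, went the other way, from between 316.9 and 335 to between 264.1 and 278.8 CPM. Endothelial markers went from between 1.38 and 2.26 to between 2.72 and 4.9 CPM, microglia markers from between 1.27 and 1.62 to between 1.98 and 2.95 CPM, and neuron markers from between 744.6 and 784.4 to between 620 and 681.7 CPM. Their part in the differences of the imprinted genes was not tested. Grb10 was 1.52-fold higher with R206H (14.8 ± 0.823 against 22.4 ± 1.74 CPM, SD, n = 3; log2 fold change 0.61, SE 0.08, edgeR adjusted p = 0.00014). Meg3 was 1.4-fold higher (22.9 ± 1.39 against 32 ± 3.49 CPM, SD, n = 3; log2 fold change 0.48, SE 0.08, edgeR adjusted p = 0.00096). Dlk1 and Rian of the same domain were also higher, at log2 fold changes of 0.40 (SE 0.12, edgeR adjusted p = 0.035) and 0.28 (SE 0.08, edgeR adjusted p = 0.029). Inpp5f measured 96.1, 89.5 and 99.2 CPM with ACVR1 WT H3.1K27M against the 110.1, 104.1 and 114.9 CPM given above (log2 fold change 0.21, edgeR adjusted p = 0.0098). Plagl1 was lower with R206H, with 16.5, 16.4 and 17.7 against 14.3, 13.2 and 13.4 CPM (log2 fold change -0.30, SE 0.07, edgeR adjusted p = 0.0096). DESeq2 also called 6 genes, 4 higher and 2 lower, without Dlk1 (adjusted p = 0.079) and with Ppp1r9a lower (log2 fold change -0.22, adjusted p = 0.046). No call remained when all 12 samples were fitted together, where the edgeR adjusted p of Grb10 was 0.057. Dlk1, Rian and Inpp5f missed the threshold without ACVR1 WT H3.1K27M replicate 2, which left 3 calls, as did leaving out ACVR1 R206H H3.1K27M replicate 3.

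Without H3.1K27M, 0 of 34 imprinted genes were called between ACVR1 R206H and ACVR1 WT, as were 0% of 15066 genes with edgeR. Snrpn alone had an unadjusted p under 0.05 (log2 fold change -0.17, SE 0.06), and DESeq2 called 0 of the 34 and 0.173% of all genes. Without ACVR1 WT replicate 1, 12 of 35 were called against 23.1% of all genes, 4 higher and 8 lower. Among these were Nnat (log2 fold change -1.08, edgeR adjusted p = 0.0041), Plagl1 (log2 fold change -0.99, edgeR adjusted p = 0.0098), Rasgrf1 (log2 fold change -1.99, edgeR adjusted p = 0.012) and Igf2r (log2 fold change 0.59, edgeR adjusted p = 0.0056). For each of these 4 the values of ACVR1 R206H lay between the replicates of ACVR1 WT.

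The interaction of both changes, that is whether the R206H difference depended on H3.1K27M, was called for 0 of 35 imprinted genes and for 0.0712% of 15445 genes (11) with edgeR, and with DESeq2 for 0 and 0.622%. Grb10 had the smallest unadjusted p among the imprinted genes, at 0.013 (log2 interaction 0.62, SE 0.21, edgeR adjusted p = 0.53), and Ddc, Snrpn and Rasgrf1 were also under 0.05 before adjustment. Without ACVR1 WT replicate 1, 13 of 36 were called against 26.6% of all genes, with Meg3 (log2 interaction 1.16, edgeR adjusted p = 0.0034) and Grb10 (0.73, edgeR adjusted p = 0.012) among them. The difference of the R206H effect between both backgrounds was therefore not shown with all samples. Comparisons that share a group, such as the R206H and H3.1K27M comparisons on ACVR1 WT, share its samples and are not independent of each other.

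With all samples, 19 genes passed an edgeR test in at least one comparison fitted on its own samples. Another 19 were tested in at least one and passed none. How many of all genes passed at least one comparison was not counted, with all samples or without ACVR1 WT replicate 1. In the comparison on H3.1K27M in the R206H background alone, 56.5% of all genes were called. The split therefore cannot be read as particular to imprinted genes. Those that passed none were Peg10, Sgce and Ppp1r9a on chromosome 6, and Peg13 and Trappc9 on chromosome 15. Also among them were Kcnq1ot1, Airn, Mirg, Commd1, Snrpn, Ndn, Ube3a, Gnas, Blcap, Nap1l5, Mcts2 and H13, and Slc38a4 and Magel2 described above. For the 17 of them with enough counts, the log2 fold changes with H3.1K27M ranged from -0.48 to 0.24 in the R206H background, and for 15 from -0.33 to 0.10 in the ACVR1 WT background. Slc38a4 and Magel2 are outside both ranges. Apart from Slc38a4, 8 of them passed an edgeR test in at least one comparison once ACVR1 WT replicate 1 was left out (Peg10, Sgce, Ppp1r9a, Snrpn, Ndn, Blcap, Mcts2 and H13). H13, a signal peptide peptidase, was one, with a log2 fold change of -0.47 with H3.1K27M in the ACVR1 WT background (edgeR adjusted p = 0.00021), and Sgce, a sarcoglycan, another (log2 fold change -0.30, edgeR adjusted p = 0.0049). DESeq2 with all samples called Ppp1r9a, an actin and phosphatase binding protein of neurons, lower with H3.1K27M in the R206H background (log2 fold change -0.21, DESeq2 adjusted p = 0.032) and lower with R206H beside H3.1K27M. H13 and Snrpn were also called when all 12 samples were fitted together. Gnas, which encodes the stimulatory G protein subunit, was counted at only 105 to 184 reads per sample, and up to 94.8% of the exon bases of a transcript of it are shared with another gene, so its level is a lower limit.

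Other imprinted genes were listed in addition to the 42. Of 30 tested, 18 (60%) were called with H3.1K27M in the R206H background, 11 higher and 7 lower, against 56.5% of all genes. With ACVR1 WT it was 12 (40%), 8 higher and 4 lower, against 23% of all genes, and without ACVR1 WT replicate 1 it was 21 of 31 (67.7%) against 52.6%. The serotonin receptor gene Htr2a had the largest difference of those tested in both, at log2 fold changes of 3.49 (SE 0.14, edgeR adjusted p = 3.8e-09) and 4.09 (SE 0.87, edgeR adjusted p = 0.021), the latter 6.52 without ACVR1 WT replicate 1 (edgeR adjusted p = 1.2e-05). Smoc1, a matricellular BMP antagonist, fell in both, at -1.56 (SE 0.07) and -0.99 (SE 0.10; -1.03 without ACVR1 WT replicate 1), and Cdkn1c, a maternally expressed cell cycle inhibitor, fell in the R206H background (log2 fold change -0.95, SE 0.21, edgeR adjusted p = 0.0023). Cdkn1c had -0.34 in the ACVR1 WT background (edgeR adjusted p = 0.54), and -0.67 without replicate 1 (edgeR adjusted p = 0.0081). With R206H beside H3.1K27M, 10 of 30 (33.3%) were called, 4 higher and 6 lower, against 20.3% of all genes. Without H3.1K27M it was 0 of 29, and 6 of 30 without ACVR1 WT replicate 1 against 23.1% of all genes.

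Genes that write, keep or help to erase imprints were listed too, with Tet1, Tet2 and Tet3 among the last. They were mostly lower with H3.1K27M in the R206H background. There 18 of 27 tested fell (66.7%) and 3 rose (11.1%), against 27.4% and 29.1% of all genes. Dnmt1, the maintenance DNA methyltransferase, had a log2 fold change of -0.48 (SE 0.06, edgeR adjusted p = 4.2e-05), its guide Uhrf1 -0.29 (SE 0.07), Trim28, the corepressor that ZFP57 recruits, -0.33 (SE 0.04), Ctcf, the insulator factor, -0.35 (SE 0.04), and Ezh2, the PRC2 enzyme, -0.57 (SE 0.04). Dnmt3a, a methyltransferase that sets new methylation, rose in both backgrounds (log2 fold change 0.64, SE 0.05, and 0.61, SE 0.08; the latter 0.65 without ACVR1 WT replicate 1), and Zfp57, which guards methylated imprints, did not pass with all samples in the R206H background (log2 fold change -0.03, SE 0.08) or in the ACVR1 WT background (-0.40, SE 0.22). Without ACVR1 WT replicate 1 Zfp57 was lower with H3.1K27M in the ACVR1 WT background (log2 fold change -0.62, edgeR adjusted p = 0.00094) and lower with R206H without H3.1K27M (-0.65, edgeR adjusted p = 0.0069). In the ACVR1 WT background 3 of the 27 (11.1%) were called, Dnmt3a higher and Ezh1 and Cbx5 lower, against 23% of all genes. Without ACVR1 WT replicate 1 it was 14 (51.9%), 7 higher and 7 lower, against 52.6%, and Dnmt1 was there higher with H3.1K27M (log2 fold change 0.62, edgeR adjusted p = 0.00092), as was Uhrf1 (1.86, edgeR adjusted p = 0.00038), opposite to the R206H background. With R206H beside H3.1K27M, 8 (29.6%) were lower and 0 higher, against 8.95% and 11.4% of all genes, Uhrf1 the most (log2 fold change -0.36, SE 0.06). Without H3.1K27M 0 of 27 were called between ACVR1 R206H and ACVR1 WT, and 0 in the interaction, while without ACVR1 WT replicate 1 it was 9 (7 higher, 2 lower) and 13 (2 higher, 11 lower), against 23.1% and 26.6% of all genes. Uhrf1 (log2 fold change 1.80), Dnmt1 (0.88) and Ezh2 (0.54) were among the 7 higher with R206H there.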

How the data were processed

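Gene counts were analysed as deposited. Pairs of reads were aligned by the authors with STAR (2.6.0b-1 per the labels) on mm10 (GRCm38) and counted per Ensembl gene with HTSeq in union mode without strand, leaving out reads on more than 1 gene. Genes that share exons are therefore undercounted, and overlapping genes on opposite strands are not separated. Exon lengths, coordinates and overlaps came from GENCODE M21.

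Tests used edgeR 4.0.16 (R 4.3.3; TMM, quasi-likelihood F test, two-sided, Benjamini-Hochberg over all genes tested, threshold 0.05). Tested genes averaged 10 or more counts over the samples of a fit once scaled by median-of-ratios factors. Each pairwise comparison was fitted on its own 6 samples and the interaction on all 12. SE is the size of the log2 fold change divided by the square root of F. CPM used TMM-scaled library sizes, and a fold change is that of the fit. DESeq2 1.42.0 (the study's tool), another scaling, other filters, a replicate block, a joint fit and leaving out each sample were the alternatives. Depth was 19315020 to 26456257 counts per sample.

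The 42 genes and the further lists were chosen with earlier results of these data known. Values per sample are given for genes called in both comparisons of one factor, for the 8 largest changes among those called in each pairwise comparison, and for H19, Igf2, Igf2r, Airn, Dlk1 and Meg3.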

Additional observations from a re-analysis of the deposited data

How the results depend on the processing

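With all 12 samples in one fit, the imprinted genes called were 0 for R206H with H3.1K27M, 13 for H3.1K27M with ACVR1 WT and 11 for H3.1K27M with ACVR1 R206H, with 440, 6335 and 5963 of all genes called against 3185, 3533 and 8745 in the separate fits. Leaving out 1 sample at a time gave 0 to 12 calls for R206H without H3.1K27M, 3 to 7 for R206H with it, 5 to 22 for H3.1K27M with ACVR1 WT, 16 to 20 for H3.1K27M with ACVR1 R206H and 0 to 13 for the interaction. The upper values of 12, 22 and 13 came without ACVR1 WT replicate 1, with 3485, 8115 and 4112 of all genes called against 0, 3533 and 11. DESeq2 called 26 and 96 of all genes for R206H without H3.1K27M and for the interaction, against 0 and 11. The cause of these changes was not tested. For R206H against ACVR1 WT without H3.1K27M, 2 of the 3 pairs of samples with the same replicate number deviated together (correlations 0.325 and 0.427, the other -0.141), and in the other comparisons the correlations lay between -0.053 and 0.088. The labels do not say that a number links samples, and a replicate block gave 0, 9, 7, 19 and 0 calls in the same order of comparisons. For R206H with H3.1K27M all 6 earlier calls stayed. For H3.1K27M with ACVR1 R206H 18 of the 19 stayed, so the 19 with the block were not all the same genes. The genes gained with the block, and the share of all genes called with it, are not given here. In the other settings no count of imprinted genes moved by over 1.5 times, and no gene called in the separate fits turned its direction in any setting run. Of 130 recomputed medians over the paternally or maternally expressed genes, 125 moved by less than the spread between replicates.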
